A study of Homo sapiens with 4 samples.

Results

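miR-423 is a microRNA (miRNA) hairpin that gives a mature product from each of its arms, hsa-miR-423-5p from the 5′ side and hsa-miR-423-3p from the 3′ side, called miR-423-5p and miR-423-3p below. Both were followed here through 4 small RNA libraries made after RNA pull-down with probes to the FN1 3′-UTR, the untranslated end of the fibronectin messenger RNA. The 2 members were found by their names among 843 distinct names in the deposited table, made up of 570 known miRNAs and 273 entries that the authors had predicted. They were chosen with measured values in view, because the 5p arm had the highest ratio of the positive over the negative probe among abundant miRNAs in both cell lines. All values of that contrast are therefore a description, and none was tested.

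The cells were of the human gastric cancer lines HGC27 and AGS, and in both of them the FN1 3′-UTR was stably overexpressed from a lentivirus. Lysates of each line met either a positive or a negative RNA probe, which gave 4 groups of 1 library each: HGC27 negative, HGC27 positive, AGS negative and AGS positive. All 4 groups carried the overexpressed region, so cells without it were not compared, and HGC27 was grown in RPMI-1640 and AGS in DMEM/F12. In a pull-down, biotinylated RNA is held on streptavidin beads and mixed with a cell lysate, and the RNA left on the beads after washing is sequenced. The labels say that the beads carried the transcript or its antisense RNA, and the study's methods name antisense RNA only. Which of them the positive and the negative probe was is not given in the sources used here. With no replicate, errors below are counting intervals at the 95% level, which cover counting error only and neither amplification nor variation between cultures.

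As background, a miRNA hairpin is cut first by Drosha and then by Dicer into a short duplex. One strand is usually kept by an Argonaute protein and guides it to messenger RNAs, mainly through its seed, bases 2 to 8 from the 5′ end, while the other strand is often degraded. Some hairpins keep both arms at measurable levels, and the ratio of the arms can differ between tissues. miR-423 is one of these, and miR-423-5p is also a common miRNA of blood plasma.

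The mature sequences are shown because the arms share a hairpin but no seed, and because the locus is read on both strands. RefSeq (GRCh38.p14) gave both members, and each was identical to the sequence in the deposited table. Capitals mark the seed.
miR-423-5p: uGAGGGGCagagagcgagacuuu
miR-423-3p: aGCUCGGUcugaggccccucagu
miR-3184-3p: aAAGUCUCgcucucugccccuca
miR-3184-5p: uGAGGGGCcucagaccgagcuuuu
The MIR423 hairpin lies on chromosome 17 from 30117079 to 30117172 on the plus strand of GRCh38.p14 and is 94 bases long. miR-423-5p covers 30117095 to 30117117 and miR-423-3p covers 30117131 to 30117153. In the GENCODE annotation of GRCh38 the hairpin sits within NSRP1, the gene of a splicing regulator, in an intron of 11 of the 12 NSRP1 transcripts that span it and in an untranslated exon of the other. MIR3184 is a second hairpin on the minus strand of the same place, from 30117086 to 30117160. All 23 bases of miR-423-5p are complementary to miR-3184-3p, and 21 of the 23 bases of miR-423-3p are complementary to miR-3184-5p. miR-3184-5p also has the same seed as miR-423-5p. miR-3184 had no entry in the deposited table and so was not analysed. How tags of one strand were kept apart from those of the other is not given in the sources used here.

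Reads of the members were not split with a near copy in the table. None of the other 842 entries shared 15 or more bases in a row with either arm or its reverse complement, and none had the seed of either arm. Exactly 2 entries lay within either hairpin, which are the members themselves.

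The libraries held 1296853 to 2955078 miRNA counts, and 342 to 609 names were listed in each, with a smallest listed count of 2. The counts were concentrated in few names. miR-372-3p made up 80.8% of the AGS negative library and 37.5% of the AGS positive library, and miR-148a-3p made up 50.6% of the HGC27 negative library. The labels of the lines were set against miRNAs known for epithelial cells (miR-200a-3p, miR-200b-3p, miR-200c-3p, miR-141-3p and miR-429) and for mesenchymal cells (miR-199a-5p, miR-199a-3p and miR-214-3p). The epithelial list held 2.02% of the AGS negative and 0.130% of the HGC27 negative counts, and 0.210% and 0.0762% with the positive probe. The mesenchymal list held 0.567% of the HGC27 negative and 0.000541% of the AGS negative counts, and 0.0666% and 0.00137% with the positive probe. miR-141-3p was not listed in either HGC27 library or in AGS positive, nor miR-214-3p in AGS positive. As sums both lists thus also differed between the probes, but their members did not all move alike. In HGC27 miR-199a-3p had 7692 counts with the negative and 58 with the positive probe, while miR-199a-5p had 472 and 787. There miR-429 was higher with the positive probe, at 6 and 13 counts, unlike the other listed epithelial members. The mesenchymal shares of AGS rest on 16 and 21 counts. The part of these lists in the values below was not tested. Of the 4 red blood cell markers, miR-451a and miR-144-5p had no entry. The others, miR-144-3p and miR-486-5p, together had 3 to 28 counts in a library, and the 28 in AGS positive were all of miR-486-5p. miR-122-5p of the liver had 6 to 48.

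miR-423-5p was scarce with the negative probe and among the most abundant miRNAs with the positive probe in both lines. It had 660 counts in the HGC27 negative library, 23084 in HGC27 positive, 259 in AGS negative and 62855 in AGS positive. As shares of all miRNA counts these were 0.0454% (Wilson interval 0.0421 to 0.0490), 1.78% (1.76 to 1.80), 0.00876% (0.00776 to 0.00990) and 4.12% (4.08 to 4.15). The order of the 4 shares was AGS positive, HGC27 positive, HGC27 negative and AGS negative, and no neighbours in that order overlapped in their counting intervals. The order of the negative probe libraries was the other way round under TMM and DESeq2 scaling, as given with the comparison of the lines. In rank it moved from the 75th to the 9th miRNA of HGC27 and from the 61st to the 7th of AGS.

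miR-423-3p behaved differently from its partner. It had 6183 counts in the HGC27 negative library, 8538 in HGC27 positive, 1065 in AGS negative and 370 in AGS positive. The shares were 0.426% (0.415 to 0.436), 0.658% (0.645 to 0.672), 0.0360% (0.0339 to 0.0383) and 0.0242% (0.0219 to 0.0268). Here the order followed the cell line, with both HGC27 libraries above both AGS libraries, and again the intervals of neighbours did not overlap. Its rank was 29 and 19 in the HGC27 libraries and 39 and 52 in the AGS libraries, negative probe first.

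**Figure D1:**
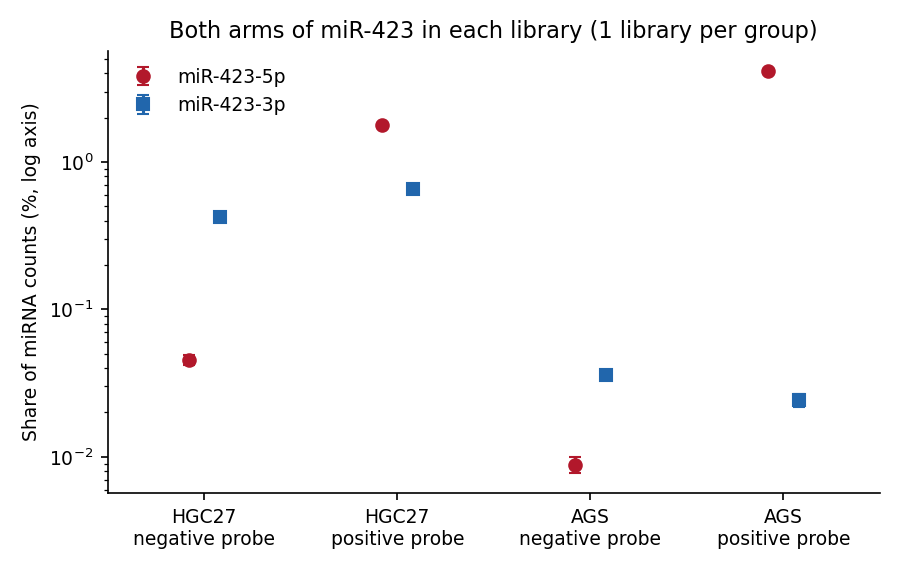
Share of all miRNA counts (percent, log axis) of miR-423-5p (circles) and miR-423-3p (squares) in each of the 4 libraries, with Wilson 95% intervals. The 5p arm lies below the 3p arm with the negative probe (0.0454% against 0.426% in HGC27) and above it with the positive probe (4.12% against 0.0242% in AGS).

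The probes were compared by the score the authors deposited, tags per 1000000 rounded to whole numbers, as the score with the positive probe + 1 over that with the negative probe + 1. A ratio of at least 2 was counted as higher and one of at most 0.5 as lower. For miR-423-5p the score was 227 and 8354 in HGC27, a ratio of 36.6 (exact interval 34.1 to 39.8), and 36 and 14711 in AGS, a ratio of 398 (361 to 462). For miR-423-3p it was 2127 and 3090 in HGC27, a ratio of 1.45 (1.41 to 1.501), and 148 and 87 in AGS, a ratio of 0.591 (0.517 to 0.658). So 1 of the 2 arms passed the ratio of 2 in each line, where 37.5% of 755 listed miRNAs in HGC27 and 39.4% of 459 in AGS did. Neither arm was at or below 0.5, against 34.0% and 22.7% of the listed miRNAs, although miR-423-3p in AGS was below it under 3 of 6 alternatives. These background shares are given for scale only, since the 5p arm was chosen on this ratio.

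The 3p arm stayed close to the bulk of miRNAs in HGC27 and below it in AGS. On the log2 scale its ratios were 0.54 and -0.76, while miRNAs counted at least 10 times had a median of -0.02 in HGC27 (398 miRNAs) and of 0.42 in AGS (244). The 5p arm was at 5.20 and 8.64. Both arms together made up 0.471% of the counts in HGC27 negative, 2.44% in HGC27 positive, 0.0448% in AGS negative and 4.14% in AGS positive. The deposited scores have other divisors than these shares. By the summed score, 2354 and 11444 in HGC27 and 184 and 14798 in AGS, the hairpin was 4.86 times as high with the positive probe in HGC27 and 80.0 times in AGS. In AGS, where the 3p arm was lower with the positive probe, the difference of the sum was carried by the 5p arm.

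The ratios depended on how the libraries were scaled, more so in AGS. Under 6 other scalings and pseudocounts the log2 ratio of miR-423-5p was between 4.90 and 5.38 in HGC27 and between 6.78 and 8.86 in AGS. That of miR-423-3p was between 0.24 and 0.72 in HGC27 and between -2.66 and -0.57 in AGS. In AGS the 3p arm was past the 2-fold limit under TMM scaling (-1.49), DESeq2 scaling (-1.13) and totals without miR-372-3p and miR-148a-3p (-2.66). Under the last of these the median of all miRNAs in AGS was -1.14. Relative to that median the 5p arm was 7.93 higher and the 3p arm 1.52 lower. The direction of each arm was the same in all of them.

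**Figure D2:**
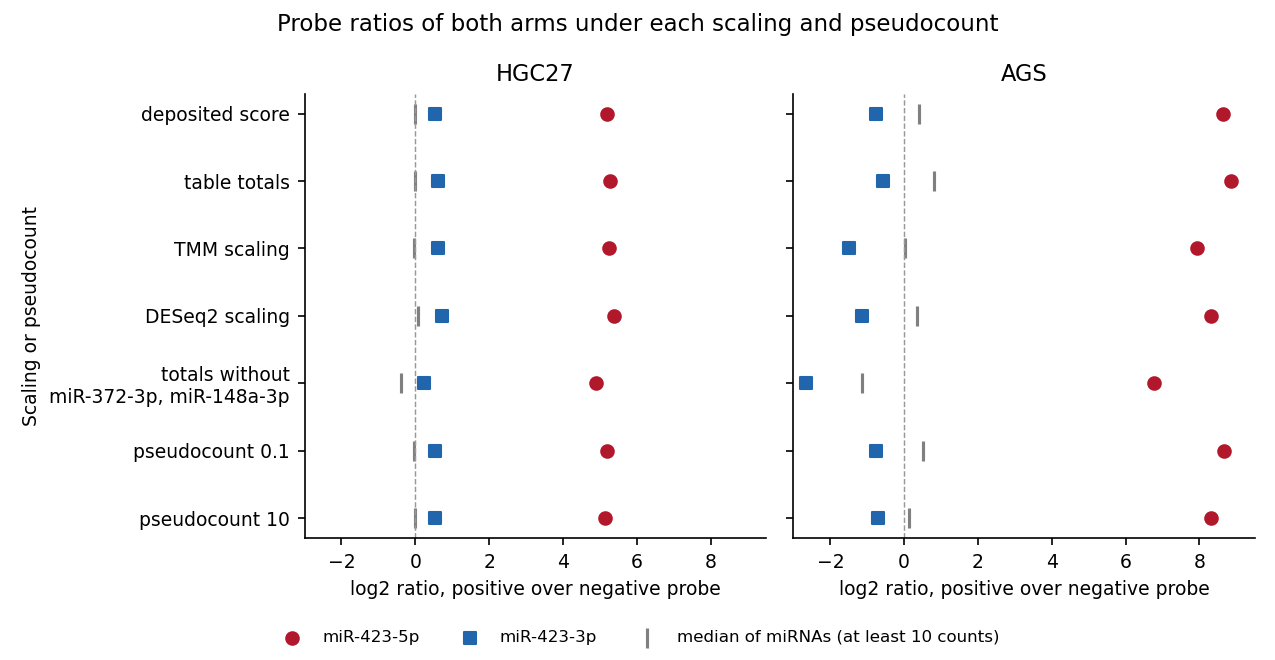
Log2 ratio of the positive over the negative probe for miR-423-5p (circles), miR-423-3p (squares) and the median over every miRNA counted at least 10 times (bars), under the deposited score and 6 alternatives, HGC27 left and AGS right. The 5p arm stays far above 0 in both lines, and the 3p arm stays right of 0 in HGC27 and left of it in AGS.

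The ratio of the 5p to the 3p arm within a library does not depend on how libraries are scaled. It was 0.107 in HGC27 negative (exact interval 0.0984 to 0.116), 2.70 in HGC27 positive (2.64 to 2.77), 0.243 in AGS negative (0.211 to 0.279) and 170 in AGS positive (153 to 189). With the negative probe the 3p arm was thus the major arm in both lines, 9.37 times the 5p arm in HGC27 and 4.11 times in AGS. With the positive probe the 5p arm was the major one. Its share of the miR-423 counts went from 9.64% to 73.0% in HGC27 and from 19.6% to 99.4% in AGS. The intervals of the 4 libraries were apart from each other.

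**Figure D3:**
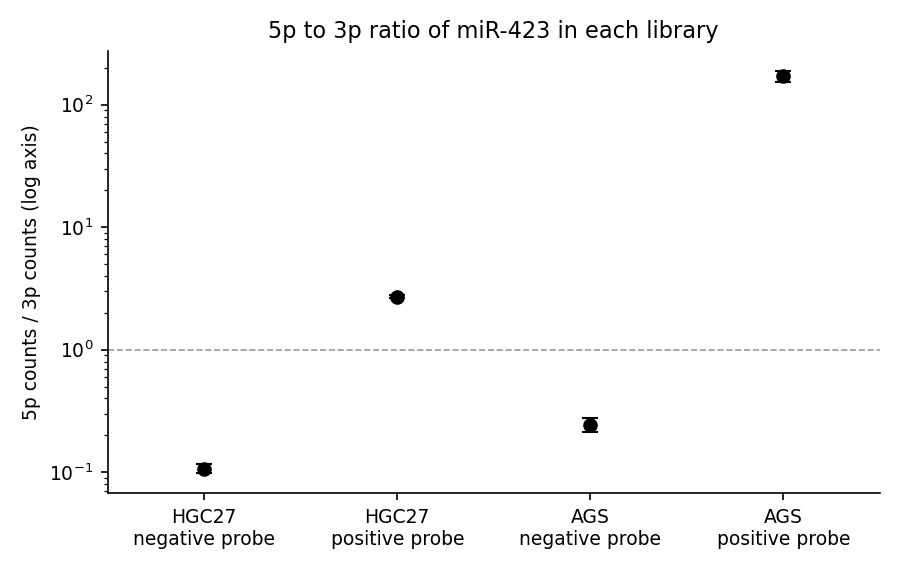
Counts of miR-423-5p over counts of miR-423-3p (log axis) in each library, with exact 95% intervals and a dashed line where both arms are equal. Both negative probe libraries lie below the line (0.107 and 0.243) and both positive probe libraries above it (2.70 and 170).

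This change of the major arm was set beside that of other hairpins. Hairpins were compared where both arms had at least 10 counts in both libraries of a line, which left 37 in HGC27 and 11 in AGS. The log2 of the 5p to 3p ratio of miR-423 was higher with the positive probe by 4.66 in HGC27 (counting interval 4.58 to 4.75) and by 9.45 in AGS (9.28 to 9.62). At least 2-fold changes toward the 5p arm were found in 32.4% of the HGC27 hairpins and in 72.7% of the AGS hairpins, and changes of that size in either direction in 56.8% and 90.9%. A change of arm ratio past 2-fold was therefore common. The median change was 0.33 in HGC27 and 2.93 in AGS, and miR-423 ranked 3rd toward the 5p arm in HGC27 and 1st in AGS. In these few hairpins of AGS, the next was miR-28, with an interval of 5.65 to 6.35. The 5p arm of miR-423 was chosen on its probe ratio, which enters this change. Its size and rank here thus follow in part from that choice and are a description only.

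In HGC27 the hairpins ahead of miR-423 were miR-199b at 8.11 and miR-199a at 7.79. Their 3p arms have 1 sequence and so the same counts, 7692 with the negative and 58 with the positive probe, while miR-199a-5p had 472 and 787. The change of these mesenchymal miRNAs thus came with a lower 3p arm, whereas in HGC27 both miR-423 arms were higher with the positive probe. miR-28 was next after miR-423 at 4.31 (4.04 to 4.59) and then miR-140 at 4.28 (3.96 to 4.59). Both intervals just reached that of miR-423, which began at 4.58. Such overlap does not say whether these 3 hairpins differed by more than counting error, and their differences were not tested. miR-28 had 125 and 157 counts of its 5p arm and 2882 and 182 of its 3p arm. In AGS miR-200b, of the epithelial miR-200 family, was the 3rd at 5.42, again with a lower 3p arm, 12532 counts against 142, and its 5p to 3p ratio was 0.0201 and 0.859.

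Toward the 3p arm, miR-99b was the farthest in both lines, with log2 changes of -3.70 in HGC27 and -4.12 in AGS. In HGC27, miR-106b at -3.39 and miR-296 at -3.06 followed. In AGS, miR-181a at -1.27 and miR-371a at -0.18 followed. Of the 9 hairpins measured in both lines, 7 had arm ratios that differed between the probes in the same direction in both. miR-423 is among them, which follows in part from how it was chosen. miR-181a was at 0.41 in HGC27 (0.07 to 0.74) and went the opposite way in AGS. miR-27b was at 2.93 in AGS and at -0.02 in HGC27, where its interval of -0.24 to 0.20 gave no direction.

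**Figure D4:**
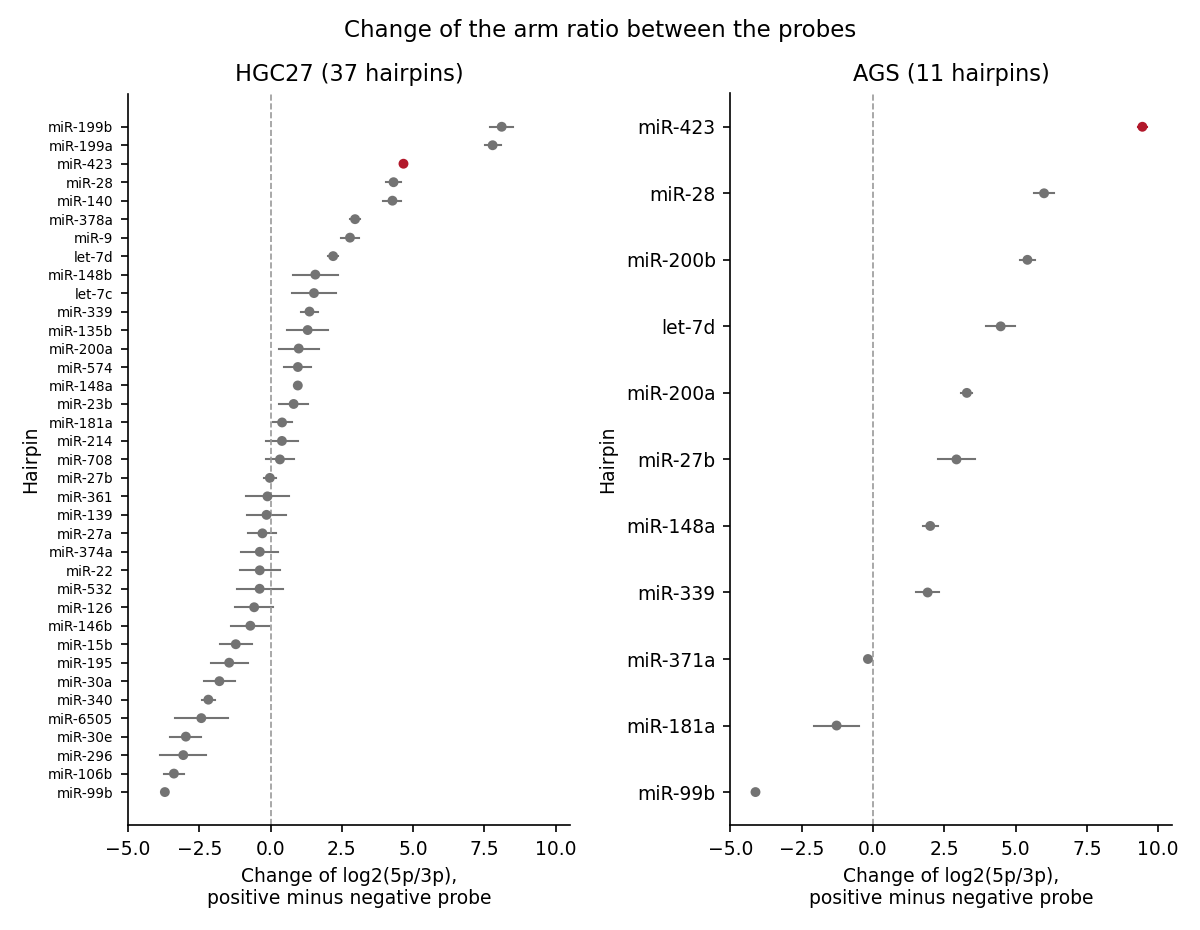
Change of log2(5p/3p) between the positive and the negative probe for each hairpin with at least 10 counts per arm and library, with counting 95% intervals from the 4 counts, in HGC27 (left, 37 hairpins) and AGS (right, 11 hairpins). miR-423, drawn in red, ranks 3rd of 37 at 4.66 and 1st of 11 at 9.45, and its 5p arm was chosen on its probe ratio.

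All 5p and all 3p arms of known miRNAs were also counted apart, whatever their hairpin. Among those with at least 10 counts in HGC27, 40 of 149 5p arms and 37 of 141 3p arms had a ratio of at least 2. Their median log2 ratios were 0.00 and -0.42. In AGS these were 39 of 98 5p arms and 31 of 93 3p arms, with medians of 0.58 and 0.00.

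Next to miR-423-5p, the abundant miRNAs with the highest ratios were let-7 members and miR-1180-3p. let-7 is a family of conserved miRNAs known as brakes on growth genes. Among the 60 miRNAs with at least 1000 positive probe counts in HGC27, miR-423-5p was followed by let-7i-5p (ratio 6.11), miR-1180-3p (5.12) and let-7e-5p (5.11). Among 30 in AGS it was followed by let-7b-5p (123), let-7e-5p (72.1) and miR-1180-3p (49.7). With a minimum of 100 counts instead, the next in HGC27 were miR-1287-5p, with 29 and 324 counts and a ratio of 10.7, and miR-1292-5p, with 12 and 143 counts and a ratio of 10.6. miR-423-5p was the first at both minimums in both lines, which restates how it was chosen. At the minimum of 100, miR-423-3p stood at 52 of 125 in HGC27 and at 67 of 86 in AGS. Both minimums were set on the positive probe counts alone.

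The sequences of these miRNAs are shown because most begin like miR-423-5p.
let-7i-5p: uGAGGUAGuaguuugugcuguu
let-7e-5p: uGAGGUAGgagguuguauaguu
let-7b-5p: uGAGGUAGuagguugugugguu
miR-1180-3p: uUUCCGGCucgcgugggugugu
The first 5 bases of miR-423-5p, UGAGG, are those of these let-7 members, and the seeds have the same base at 4 of their 7 positions. UGAGG at the 5′ end was found in 15 of the 570 known miRNAs (2.63%). miR-423-3p and miR-1180-3p begin otherwise.

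Of these, 9 in HGC27 and 10 in AGS had at least 10 counts summed over both probes. miR-423-5p is among them and was chosen on this ratio, so it does not count here. Without it the ratio was at least 2 for 8 of 8 in HGC27 and for 9 of 9 in AGS. Among all known miRNAs with that many counts, this held for 26.5% in HGC27 and 35.2% in AGS. Besides miR-423-5p the list held let-7a-5p, let-7b-5p, let-7c-5p, let-7e-5p, let-7f-5p, let-7g-5p, let-7i-5p and miR-98-5p and, in AGS, miR-3605-5p. With 0 and 10 counts, miR-3605-5p reached the minimum only through the positive probe library, so it does not count here either. Without miR-423-5p the list had a median log2 ratio of 1.98 in HGC27, from 1.46 to 2.61, and of 4.51 in AGS, from 1.58 to 6.94. The medians of all known miRNAs were -0.16 and 0.19. A minimum of 100 counts leaves miR-3605-5p out. In AGS the ratio was then at least 2 for 8 of 8 without miR-423-5p, with a median of 4.94, from 2.27 to 6.94. Among the 104 known miRNAs with that many counts it was at least 2 for 39.4%. The values of miR-423-5p, 5.20 and 8.64, lie above these ranges, which restates how it was chosen. The list is nearly one family, whose members differ by few bases, so its entries are not independent, and it was chosen with earlier results known.

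With only the first 4 bases, UGAG, a choice made after these values were seen, other families entered and the picture was more mixed. In HGC27, 12 of 16 were at least 2-fold higher, or 11 of 15 without miR-423-5p. The exceptions were miR-339-3p at -1.66 on the log2 scale, miR-769-5p at -0.60, miR-589-5p at 0.17 and miR-574-5p at 0.97. miR-143-3p, a miRNA best known from smooth muscle and other mesenchymal cells, was at 2.26 in HGC27 and 1.81 in AGS. In AGS, 15 of 16 were at least 2-fold higher, or 14 of 15 without miR-423-5p, and miR-339-3p was at 0.77. The AGS numbers again include miR-3605-5p, with 0 and 10 counts.

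**Figure D5:**
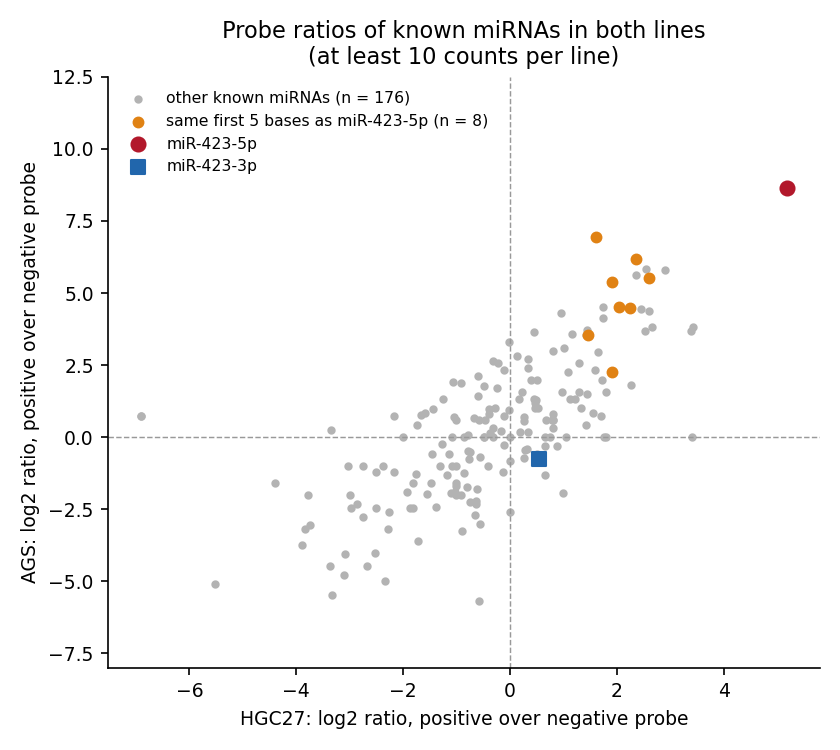
Log2 ratio of the positive over the negative probe in HGC27 (x axis) and AGS (y axis) for 186 known miRNAs with at least 10 counts in each line. miR-423-5p (red circle) is at 5.20 and 8.64, the 8 others with its first 5 bases (orange) lie between 1.46 and 2.61 in HGC27 and between 2.27 and 6.94 in AGS, and miR-423-3p (blue square) is at 0.54 and -0.76.

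The miRNAs whose pattern was most like each arm were found by the Euclidean distance of log2(score + 1), centred over the 4 libraries, among 189 other known miRNAs with at least 100 counts in all. For miR-423-5p the nearest were let-7e-5p (distance 2.79), let-7b-5p (2.80), let-7i-5p (2.86), miR-629-5p (2.91) and miR-296-3p (3.08). Their scores were higher with the positive probe in both lines, which follows largely from choosing them by likeness to miR-423-5p. let-7e-5p had scores of 633 and 3238 in HGC27 and of 160 and 11611 in AGS. miR-629-5p was far less abundant, with scores of 1, 14, 0 and 55 in that order. miR-423-3p was only the 102nd nearest to its partner, at a distance of 8.23.

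For miR-423-3p the nearest were miR-450b-5p (0.57), miR-328-3p (0.69), miR-767-5p (0.69), miR-1269b (0.74) and miR-199b-5p (0.88). All 5 had scores between 16 and 48 in HGC27 and of 0 in AGS, so the likeness lies in the difference between the lines. A score of 0 can still be a few tags, and the distances of such miRNAs are set in part by the pseudocount.

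The difference between the lines was read separately for each probe. With the negative probe the score of miR-423-5p was 6.16 times as high in HGC27 as in AGS (5.44 to 7.29), and that of miR-423-3p 14.3 times (13.4 to 15.3). With the positive probe miR-423-5p was 1.76 times as high in AGS as in HGC27 (1.73 to 1.79). miR-423-3p was then 35.1 times as high in HGC27 (32.2 to 39.7). Each value compares 2 libraries, and the scale moved them by more than their counting intervals. Under TMM and DESeq2 scaling, alternatives added after the data were seen, miR-423-5p with the negative probe was instead 1.30 and 1.36 times as high in AGS. The order of the lines for the 5p arm with the negative probe was thus not settled. The other 3 orders were the same under the 4 scalings tried. miR-423-5p with the positive probe was 2.31 to 10.4 times as high in AGS, and miR-423-3p was 1.67 to 11.8 times as high in HGC27 with the negative probe and 6.04 to 27.1 times with the positive probe.

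Both arms are 23 bases long, but they differ in composition. miR-423-5p has 43.5% G, with a run of 4, and 56.5% G or C, and miR-423-3p has 30.4% G and 65.2% G or C. Of the 190 known miRNAs with at least 100 counts in all, 7 had more G than miR-423-5p, and the median was 23.8%. More G or C than in miR-423-3p was found in 9, with a median of 47.6%. Across known miRNAs with at least 100 counts in a line, the log2 ratio had a Spearman rho with the percent of G of 0.18 in HGC27 (163 miRNAs) and of 0.32 in AGS (104). With the percent of G or C it was 0.14 and 0.11, and with length -0.01 and -0.18. These points share 2 libraries per line, include the let-7 family and are not independent, and the relations are weak.

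The probes were made to the FN1 3′-UTR, so both arms were matched to that sequence. In the GENCODE annotation of GRCh38 (transcript FN1-205) the region after the stop codon is 1101 bases long, and it spans 215360454 to 215361554 of chromosome 2, minus strand. No site complementary to the seed (bases 2 to 8) of either arm was found in the transcript strand or in its antisense strand. Such a site was found for 7.37% of the 570 known miRNAs in the transcript strand and for 7.72% in the antisense strand. The longest unbroken Watson-Crick match of miR-423-5p was 9 bases in the transcript strand, by its bases 6 to 14. Of the known miRNAs 6.49% had a match at least that long there. The site is shown with 4 bases on each side, and capitals mark the matched bases.
FN1 3′-UTR at chr2:215361514-215361522, minus strand: auguCUCUCUGCCaaga
miR-423-3p matched at most 7 bases in the transcript strand, a length that 56.7% of the known miRNAs reached. Both arms matched at most 6 bases in the antisense strand, which 93.3% reached. These are descriptions of letters in 1 annotated transcript, and no match says only that these letters are not in this window. The study predicted binding of miR-423-5p to this region by another method. It also reported that a miR-423-5p mimic lowered the activity of a reporter gene carrying the region, while a mutated mimic did not. Further, the study reported lower FN1 3′-UTR expression in HGC27 and AGS cells given this mimic. For cell invasion, adhesion and mobility it described results similar to those with a let-7i-5p mimic, which removed the effect of the region. Those assays are not part of the libraries read here.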

How the data were processed

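MiRNA sequencing of pull-down RNA gave 4 libraries, 1 per group, grouped by the titles in the labels. For each mature miRNA the authors deposited tag counts, not normalized, and a score, which is those counts per 1000000 tags, rounded, save for 6 to 11 scores per library that differed from the rounded quotient. The labels name cutadapt 1.9.3, Novoalign 3.02.12 and hg38 in the submitters' processing notes. The 901 rows, which repeat a miRNA for each precursor, were collapsed to 843 names, and blanks were taken as 0. The deposited scores imply divisors of 2763265 to 7179132 tags, above the table totals, of which these are 35.7% to 50.0%. Why they differ is not given in the sources used here.

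Shares carry Wilson intervals, ratios exact binomial intervals from the counts and divisors, and arm ratios Clopper-Pearson intervals. Changes of arm ratio carry normal intervals from 4 counts. No test was made, as there was 1 library per group and the members were chosen on the probe contrast. Members and lists were chosen with earlier results of these data known. Scales by TMM (edgeR 4.0.16) and by DESeq2 1.42.0 in R 4.3.3 served as alternatives, without tests. Python 3.11.15 was used otherwise. The functions were tested on simulated data.

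Named miRNAs were, by rule, both arms, entries sharing 15 bases or a seed with them, the 5 nearest in pattern, the 3 next in ratio with at least 1000 positive probe counts, and the 3 hairpins farthest toward either arm in each line. Members of the start list and those at lower minimums were named after their values were seen.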

Additional observations from a re-analysis of the deposited data

Results flagged for a closer look

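miR-423-3p moved in opposite directions between the probes in the lines. On the log2 scale it was higher by 0.54 with the positive probe in HGC27 and stood at -0.76 in AGS, so AGS minus HGC27 was -1.30, and each ratio was outside counting error of 0. Neither reached 2-fold under the deposited score, and both directions held under the 6 other scalings and pseudocounts. miR-181a also went opposite ways in its 5p to 3p ratio, with a log2 change of 0.41 in HGC27 and of -1.27 in AGS, a difference of -1.68, on as few as 17 counts per arm in AGS. With 1 library per group neither difference was tested.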

How the results depend on the processing

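Of 116 values recomputed under alternatives, 46 moved by less than their counting error (rho by less than 0.05) or, for numbers of miRNAs, by less than 1.5 times, 68 moved by more and 2 turned direction, both for miR-423-5p between the lines. Causes were not tested. Each pair of values below is HGC27 first, then AGS.

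The log2 ratio of miR-423-5p moved to 8.86 in AGS on table totals, to 7.95 in AGS under TMM, to 5.38 and 8.31 under DESeq2 scaling, to 4.90 and 6.78 on totals without miR-372-3p and miR-148a-3p, and to 8.32 in AGS with a pseudocount of 10. That of miR-423-3p moved to 0.63 and -0.57 on table totals, 0.60 and -1.49 under TMM, 0.72 and -1.13 under DESeq2 scaling, and 0.24 and -2.66 on totals without those miRNAs. The 5p arm was the first by ratio among miRNAs with at least 1000 positive probe counts in every setting, but with at least 10 counts and a pseudocount of 0.1 it ranked 14 in HGC27 and 2 in AGS.

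The log2 of HGC27 over AGS, recomputed as a choice made after seeing the data, is given here in the order table totals, TMM, DESeq2 scaling and totals without those miRNAs. For miR-423-5p with the negative probe it was 2.62 on the deposited score and became 2.36, -0.38, -0.45 and 0.59, so the direction turned under TMM and DESeq2 scaling. With the positive probe it was -0.82 and became -1.21, -3.07, -3.38 and -1.30. For miR-423-3p it was 3.84 with the negative probe and became 3.56, 0.81, 0.74 and 1.78, and with the positive probe it was 5.13 and became 4.76, 2.90, 2.59 and 4.67.

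The median of the UGAGG list was 2.13 and 5.17 on table totals, 2.11 and 4.26 under TMM, 2.23 and 4.62 under DESeq2 scaling, 1.74 and 3.52 on totals without those miRNAs, 5.37 in AGS with at least 100 counts, and, as choices made after seeing the data, 1.76 and 3.93 with UGAG and 1.98 and 4.51 without miR-423-5p.

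Numbers of miRNAs with a ratio of at least 2 became 42 and 55 with a pseudocount of 10, 103 and 93 with at least 10 counts in a library, 60 and 63 with a fold of 4, and 157 and 118 for known miRNAs only. Those at most 0.5 became 168 and 177 under TMM, 157 and 164 under DESeq2 scaling, 224 in AGS on totals without those miRNAs, 63 and 36 with a pseudocount of 10, 122 in HGC27 with at least 10 counts, and 62 and 40 with a fold of 4.

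Hairpins past 2-fold in arm ratio were 12 in HGC27 with at least 50 counts per arm, and 66 and 63 with no minimum and 0.5 added, where miR-423 ranked 10 and 2 toward the 5p arm. The miR-423 arm ratios moved by less than their counting error. With at least 1000 counts, rho was 0.27 and 0.40 for percent G, -0.055 and 0.031 for percent GC, and -0.14 for length in HGC27. No replicate could be left out. Probe libraries were compared within each line, but each line gave only 1 such pair, and no paired test was made. A fit over both lines with the line as a term, which would leave 1 residual degree of freedom, was not made, as the members were chosen on the probe contrast. The minimum of 10 counts left 11 hairpins in AGS and 37 in HGC27.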
